A study of Saccharomyces cerevisiae with 30 samples.

Results

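The genes for the proteins of the cytosolic ribosome were described in 30 RNA-seq libraries of budding yeast, Saccharomyces cerevisiae, that carry mutations in the SAGA complex or none. They were taken as all genes named RPL or RPS with a number, with or without the copy letter A or B, together with the genes named RPP0, RPP1 or RPP2 with or without a letter. The rule found 138 of the 6101 genes. One of these, RPP1, encodes a subunit of the RNA-processing enzyme RNase P and not a ribosomal protein, and it is left out of every count given here; its largest change was −0.71 ± 0.07 on the log2 scale in Gcn5m against WT in sucrose (limma adjusted p = 8.19e-08). The other 137 genes comprised 76 for proteins of the large subunit, 56 for proteins of the small subunit and 5 for the stalk of the large subunit. Of the 137, 118 formed 59 pairs of paralogues (copies A and B) and 19 were single genes. An intron interrupted the coding sequence of 89 of them and of none of the other 48.

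Ribosomal protein genes are among the most heavily transcribed genes of growing yeast, and their products are needed in equal numbers in each ribosome. In yeast, their promoters are bound by Rap1 together with Fhl1, Ifh1 and often Hmo1, while a smaller group uses Abf1, and nutrient signalling through TOR and protein kinase A sets how strongly they are transcribed. SAGA is a coactivator complex whose subunit Gcn5 acetylates histones. Ada3, encoded by NGG1, belongs to the same acetyltransferase module, and Spt7 is a core subunit that, like Gcn5, contains an acetyl-lysine-binding bromodomain.

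All strains were BY4741, a laboratory strain of mating type a that carries deletions at HIS3, LEU2, MET17 and URA3. The Ada3 set held 12 libraries, 3 each of the Ada3 acetylation mutant Ada3-3KR in sucrose, Ada3-3KR in glucose, WT in sucrose and WT in glucose. The bromodomain set held 18, 3 each of the Gcn5 bromodomain mutant Gcn5m in sucrose and in glucose, the Spt7 bromodomain mutant Spt7m in sucrose and in glucose, and a WT of its own in sucrose and in glucose. Cells grown at 28 °C in glucose medium to an OD600 of 0.7 were moved for 30 min to YP medium (yeast extract and peptone) with 2% sucrose or 2% glucose, so both sugars were given after the same transfer. The labels do not say whether libraries of a group came from separate cultures, and if they did not, the p-values measure technical spread only. Values are the FPKM (fragments scaled to transcript length and to the library's total) deposited by the authors. Because they are scaled to length, levels of different genes can be set side by side, though only roughly. Some coding sequences are as short as 78 bases (RPL41A and RPL41B), and some copies are nearly identical. Because the values are shares of a library, a fall of some genes cannot be told apart from a rise of the others. Each library pools many cells, so less of an mRNA per cell and fewer cells with it cannot be told apart either. The read depth behind them is unknown. Changes are differences of log2(FPKM + 1) with their SE from limma, fitted in each set over all genes that averaged 1 FPKM or more (5830 genes in the Ada3 set and 5841 in the bromodomain set). A gene is called where the Benjamini-Hochberg adjusted p over all those genes is below 0.05.

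The libraries matched their strain background in most marker genes. The a-factor genes MFA1 and MFA2 stood between 1423 and 5478 FPKM in all libraries and the alpha-cell gene STE3 at 3.99 FPKM or less, while MET17 was listed at 0 and LEU2 at 0.136 FPKM or less. HIS3, of which BY4741 carries a partial deletion, stood at 56.8 to 153.7 FPKM. The genes of the altered proteins stood at 15.2 to 24.9 FPKM (NGG1), 17.1 to 41.5 (GCN5) and 18.7 to 28.3 (SPT7) in all libraries, and since the alleles alter the proteins, these levels check no label. URA3 separated the strains of the bromodomain set. It was at 223 to 254 FPKM in Gcn5m in sucrose, 399 to 444 in Gcn5m in glucose, 7079 to 10102 in Spt7m in sucrose and 9581 to 11463 in Spt7m in glucose, against 0.382 to 2.30 in WT in sucrose and 0 to 0.749 in WT in glucose, and it was 0.398 FPKM or less in the Ada3 set. URA3 and strain cannot be told apart in the comparisons of Gcn5m and Spt7m with WT, and its part in them was not tested.

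Copies whose values carry most of what follows are shown by 300 bases upstream, from 450 to 151 bases before the start codon, read from the RefSeq R64 genome on the coding strand, 5′ to 3′. They are the copies with the largest rise and the largest fall in each set over all its comparisons, the difference of the sucrose effects included, and the pair with the most unequal change, for 3 of them with the partner copy: RPS9A (chrXVI:404500-404799, plus strand) and RPS9B (chrII:604058-604357, plus strand), RPL33A (chrXVI:281672-281971, plus strand) and RPL33B (chrXV:779556-779855, minus strand), RPL18B (chrXIV:64713-65012, minus strand), RPS28A (chrXV:649158-649457, minus strand) and RPS28B (chrXII:672681-672980, plus strand). Capitals mark matches on either strand to ACCCNNACA (letters of the Rap1 site), to the Abf1 consensus, to TCCGCC (a short motif of many of these promoters, absent from these windows) or to TTTTTTTT. The matches of different motifs do not overlap in these windows.
RPS9A: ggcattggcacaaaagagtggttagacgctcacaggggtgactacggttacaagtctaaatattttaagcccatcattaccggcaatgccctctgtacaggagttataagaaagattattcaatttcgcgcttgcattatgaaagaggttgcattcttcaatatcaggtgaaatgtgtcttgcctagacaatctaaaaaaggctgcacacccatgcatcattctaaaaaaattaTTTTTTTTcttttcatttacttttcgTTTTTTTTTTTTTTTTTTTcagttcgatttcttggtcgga
RPS9B: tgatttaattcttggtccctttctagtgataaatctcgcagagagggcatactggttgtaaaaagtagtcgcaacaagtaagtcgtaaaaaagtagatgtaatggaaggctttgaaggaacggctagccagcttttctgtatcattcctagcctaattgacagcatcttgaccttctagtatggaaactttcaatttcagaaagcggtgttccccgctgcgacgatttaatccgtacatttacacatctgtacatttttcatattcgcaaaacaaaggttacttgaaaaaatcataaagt
RPL33A: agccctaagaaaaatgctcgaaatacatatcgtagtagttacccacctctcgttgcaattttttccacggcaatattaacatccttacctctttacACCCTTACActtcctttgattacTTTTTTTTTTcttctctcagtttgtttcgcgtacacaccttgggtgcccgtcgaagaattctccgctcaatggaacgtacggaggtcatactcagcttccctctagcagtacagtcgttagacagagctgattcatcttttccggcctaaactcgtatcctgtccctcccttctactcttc
RPL33B: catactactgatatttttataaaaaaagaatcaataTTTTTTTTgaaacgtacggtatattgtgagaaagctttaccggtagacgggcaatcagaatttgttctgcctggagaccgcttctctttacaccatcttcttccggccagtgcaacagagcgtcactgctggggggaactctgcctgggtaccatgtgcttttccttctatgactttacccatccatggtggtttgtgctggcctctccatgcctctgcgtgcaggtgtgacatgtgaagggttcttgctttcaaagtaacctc
RPL18B: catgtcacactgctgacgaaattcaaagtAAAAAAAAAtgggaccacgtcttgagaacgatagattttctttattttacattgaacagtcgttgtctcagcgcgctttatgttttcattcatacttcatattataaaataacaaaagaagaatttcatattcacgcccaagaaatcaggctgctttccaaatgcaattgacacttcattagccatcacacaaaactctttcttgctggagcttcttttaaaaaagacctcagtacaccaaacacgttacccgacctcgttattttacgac
RPS28A: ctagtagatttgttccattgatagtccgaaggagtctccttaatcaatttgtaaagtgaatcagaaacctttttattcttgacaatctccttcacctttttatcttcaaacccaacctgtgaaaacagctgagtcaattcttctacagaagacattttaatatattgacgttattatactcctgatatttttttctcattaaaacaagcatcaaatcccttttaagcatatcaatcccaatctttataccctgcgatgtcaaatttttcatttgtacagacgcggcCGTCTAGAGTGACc
RPS28B: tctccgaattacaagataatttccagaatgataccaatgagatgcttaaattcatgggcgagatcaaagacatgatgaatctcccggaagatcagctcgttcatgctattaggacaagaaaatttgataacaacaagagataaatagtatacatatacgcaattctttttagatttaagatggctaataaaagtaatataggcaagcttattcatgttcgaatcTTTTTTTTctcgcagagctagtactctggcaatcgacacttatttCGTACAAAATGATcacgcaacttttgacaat

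The copies of a pair differed in the letters found. RPL33A has the Rap1 letters 354 bases before its start codon and RPL33B has none in its window, both RPS28 copies have an Abf1 match, 164 bases upstream in RPS28A and 181 in RPS28B, and RPS9A has T tracts where RPS9B has no match at all. The window of RPS9B takes in 50 bases of NTC20, that of RPS28A 155 bases of GLN4 and that of RPS28B 143 bases of RED1. Over all 137 genes, the Rap1 letters were present in the windows of 47 (34.3%), against 223 of 6019 windows of all protein-coding genes (3.7%). TCCGCC was in 26 (19.0%) against 339 (5.6%), the T tract in 54 (39.4%) against 1670 (27.7%), and the Abf1 consensus in 11 (8.0%) against 719 (11.9%). A match describes these letters and shows no binding.

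Coding sequences of the pairs were far more alike, with identities between 69.2% in RPP1A and RPP1B and 99.4% in RPL1A and RPL1B. The shortest pair shows what that does to counting. RPL41A (chrIV:130407-130484, minus strand) and RPL41B (chrIV:221724-221801, minus strand) encode the same very short peptide in 78 bases with 1 difference, in capitals.
RPL41A: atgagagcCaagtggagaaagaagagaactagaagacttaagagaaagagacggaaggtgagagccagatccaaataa
RPL41B: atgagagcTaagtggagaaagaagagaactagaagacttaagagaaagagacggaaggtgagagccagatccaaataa

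Of the 137 genes, 80 had at least one stretch of 50 bases in common with another gene, and 16 had more than 50% of such stretches in common. Among these 16 are the copies of RPL1, RPL4, RPL7, RPL11, RPL35, RPL41 and RPS6, and how the reads of the 16 were divided between copies is uncertain. The introns of RPL7A, RPL7B and RPS22B also hold the small nucleolar RNAs SNR39, SNR59 and SNR44.

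All 137 genes were measured in every library and none was listed at 0. Their mean levels in the Ada3 set ran from 70.2 FPKM for RPL15B to 6339 for RPS31, with a median of 1496, against a median of 35.1 over all 6101 genes. Of the 239 genes above 1000 FPKM in that set, 105 were ribosomal protein genes. In the bromodomain set they ran from 59.6 FPKM for RPL15B to 5413 for RPS31, with a median of 1645, against 39.5 over all genes, and made up 109 of the 245 genes above 1000 FPKM. RPS31 encodes a small-subunit protein fused to ubiquitin. Among the next were RPP1A (4755 FPKM), RPL30 (4474), RPS14A (4464) and RPS20 (4230) in the Ada3 set, and RPS20 (4115), RPL3 (3946) and RPS14A (3900) in the bromodomain set. The lowest after RPL15B were all minor copies of a pair as well, RPL22B (76.4 FPKM), RPS9A (205.3), RPS7B (236.1) and RPL7B (318.2) in the Ada3 set and RPL22B (96.5), RPS9A (254.2), RPL18B (338.2) and RPS7B (362.3) in the bromodomain set.

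The 137 genes together held between 14.9% and 23.7% of a library's summed FPKM, and the size of that share differed with sugar and strain. In the bromodomain set it was 16.02 ± 0.252% in Gcn5m in sucrose, against 21.1 ± 0.502% in Gcn5m in glucose (SD, n = 3 here and in all shares). Spt7m gave 15.73 ± 0.747% in sucrose, against 22.1 ± 0.236% in glucose, and WT 20.64 ± 0.178% in sucrose, against 23.53 ± 0.206% in glucose. In each strain the groups of the 2 sugars did not overlap, and the sucrose libraries of both mutants stood apart from all other libraries of that set. In the Ada3 set the shares were 18.46 ± 0.07% in Ada3-3KR in sucrose and 18.7 ± 0.125% in Ada3-3KR in glucose, against 20.01 ± 0.843% in WT in sucrose and 21.08 ± 0.491% in WT in glucose. There the 2 sugars overlapped in WT, whose sucrose libraries held 19.21, 20.89 and 19.92% and whose glucose libraries held 21.65, 20.81 and 20.79%. Every Ada3-3KR library lay below every WT library.

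**Figure D1:**
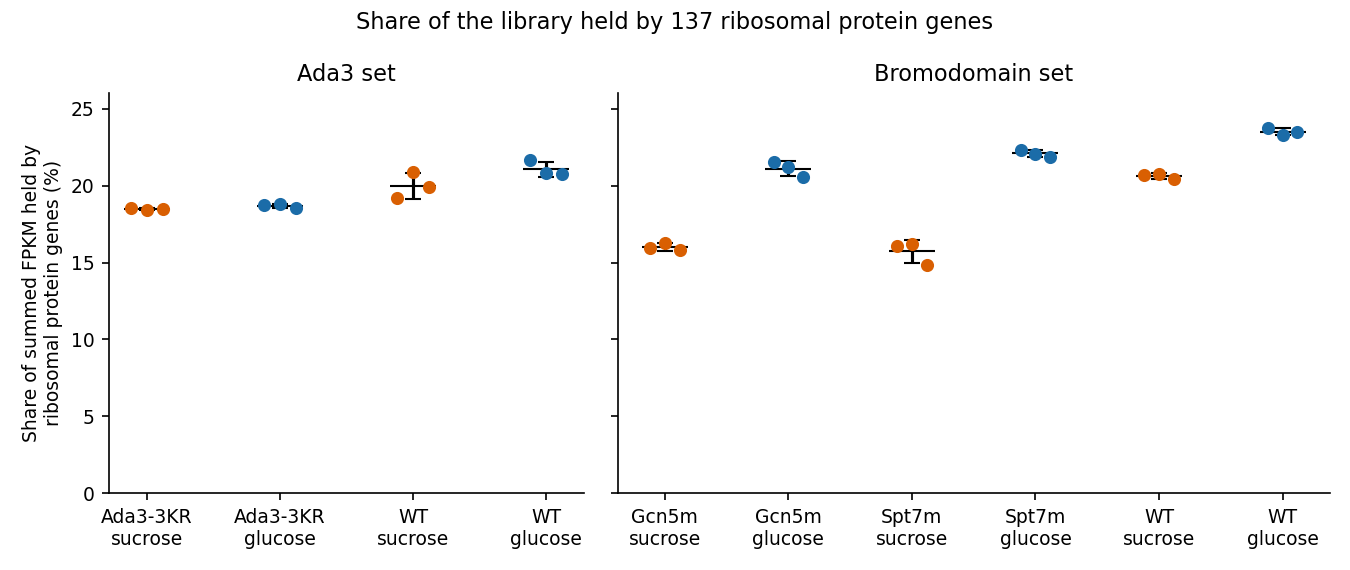
Share of the summed FPKM of each library (y axis, %) held by the 137 ribosomal protein genes, by strain and sugar, with the Ada3 set on the left and the bromodomain set on the right. Each point is a library and the bar is the group mean with its SD. The sucrose libraries of Gcn5m and Spt7m, at 16.02% and 15.73% on average, lie below all others of their set, and the Ada3-3KR libraries lie below both WT groups.

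The first question was how these genes respond to the sugar in cells with an intact SAGA. In the WT of the bromodomain set, 116 of the 137 genes were lower in sucrose than in glucose and 2 were higher, with a median log2 change of −0.24. Over all genes of that comparison 66.7% were called, 15.7% lower and 50.9% higher, with a median of 0.17. The WT of the Ada3 set had 77 genes lower and 1 higher with a median of −0.12, where 46.6% of all genes were called, 13.9% lower and 32.7% higher, and the median was 0.08. Of these, 76 genes were lower in sucrose in both WT groups, which is 76 of the 77 and of the 116. With 116 of the 137 genes lower in the bromodomain WT, a large overlap follows from the counts. That over all genes was not counted. The falls were small: none of the 137 genes passed the test with a change of 1.5-fold or more in either WT, where 15.6% of all genes did so in the bromodomain set and 6.19% in the Ada3 set.

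The largest falls in the WT of the bromodomain set were those of RPL9A (log2 change −0.46 ± 0.07, adjusted p = 1.43e-05), RPL37A (−0.44 ± 0.10, adjusted p = 0.000732) and RPP0 (−0.43 ± 0.07, adjusted p = 3.11e-05) in limma. In the Ada3 set they were those of RPL37B (−0.40 ± 0.10), RPL43A (−0.34 ± 0.08) and RPS28B (−0.32 ± 0.05). RPL9A, a large-subunit gene, stood at 1258, 1230 and 1135 FPKM in WT in sucrose, against 1697, 1574 and 1703 in WT in glucose. Its partner RPL9B, whose coding sequence is 93.8% identical, had 769.4, 763.9 and 754.6 FPKM in sucrose, against 778.7, 730.4 and 769.6 in glucose. The sugars separated the libraries of RPL9A and overlapped in RPL9B. Among the single genes RPS12, for a small-subunit protein, fell by 0.42 and RPS15 by 0.32 on the log2 scale in the bromodomain set (after quantile normalization RPS15 stood at 0.03, and RPS12 at −0.128 and RPP0 at −0.135 were not called, adjusted p = 0.0894 and 0.0668 in limma), and RPL32 fell by 0.23, RPL25, for a protein at the exit of the peptide tunnel, by 0.20 and RPS2 by 0.19 in the Ada3 set.

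The size of these WT falls depends on how libraries are scaled. After quantile normalization 49 genes were called lower and 10 higher in the bromodomain set and 44 lower and 9 higher in the Ada3 set. Of all genes, 1849 of 5841 were then lower and 1515 higher in the bromodomain set. In the Ada3 set 1502 of 5830 were lower and 1100 higher. After rescaling each library to the median gene it was 133 lower and 1 higher in the bromodomain set and 122 lower and 0 higher in the Ada3 set. Over all genes this rescaling gave 2213 lower and 1330 higher in the bromodomain set and 1765 lower and 1047 higher in the Ada3 set. These scalings moved the median change of all genes by −0.21 and −0.25 in the bromodomain WT and by −0.11 and −0.12 in the Ada3 WT. Relative to that median, the ribosomal protein genes stood at −0.42 in the WT of the bromodomain set as deposited, −0.05 after quantile normalization and −0.43 after median rescaling, and at −0.20, −0.03 and −0.21 in the WT of the Ada3 set.

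RPS9A, a minor copy that encodes a small-subunit protein involved in the accuracy of decoding, went the other way, and it alone among the 137 genes was called higher in sucrose in all 5 strain groups. It stood at 393.6, 395.8 and 351.4 FPKM in WT in sucrose, against 268.5, 283.8 and 262.3 in WT in glucose of the bromodomain set. The groups did not overlap, and the log2 change was 0.48 ± 0.05 (limma adjusted p = 1.44e-07). In the WT of the Ada3 set it stood at 245.4, 264.1 and 260.7 FPKM in sucrose, against 232.6, 230.9 and 220.0 in glucose, a change of 0.17 ± 0.06 (limma adjusted p = 0.0331). That call was lost when any of 5 of the 6 libraries was left out (adjusted p of at most 0.109) and after quantile normalization (0.10) or median rescaling (0.04). The major copy RPS9B changed by −0.25 in the bromodomain WT and by −0.09 in the Ada3 WT, and the pair was called in opposite directions in both. RPL22B, a minor copy with 78.9% identity to RPL22A, was the other gene called higher in the bromodomain WT (0.18 ± 0.05, limma adjusted p = 0.00887), a call lost without the second WT library in glucose (log2 change 0.14), and a direction that turned to −0.07 after quantile normalization and −0.08 after median rescaling.

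Both bromodomain mutants showed a larger fall in sucrose. In Gcn5m 125 of the 137 genes were lower in sucrose than in glucose and 2 were higher, with a median of −0.48, where 74% of all genes were called, 21.8% lower and 52.2% higher, and the median was 0.20. In Spt7m 133 were lower and 1 was higher, with a median of −0.58, where 76% of all genes were called, 24.4% lower and 51.6% higher, and the median was 0.19. Called falls of at least 1.5-fold numbered 37 in Gcn5m and 65 in Spt7m (27% and 47.4% of the 137 genes), against 6.32% and 7.91% of all genes. The genes lower in sucrose in Gcn5m, Spt7m and the WT of that set numbered 112 in common. With 125, 133 and 116 of the 137 genes lower, a large overlap follows from the counts. The overlap over all genes was not counted. Relative to the median of all genes the 137 stood at −0.68 in Gcn5m and −0.77 in Spt7m as deposited, and at −0.30 and −0.40 after quantile normalization.

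**Figure D2:**
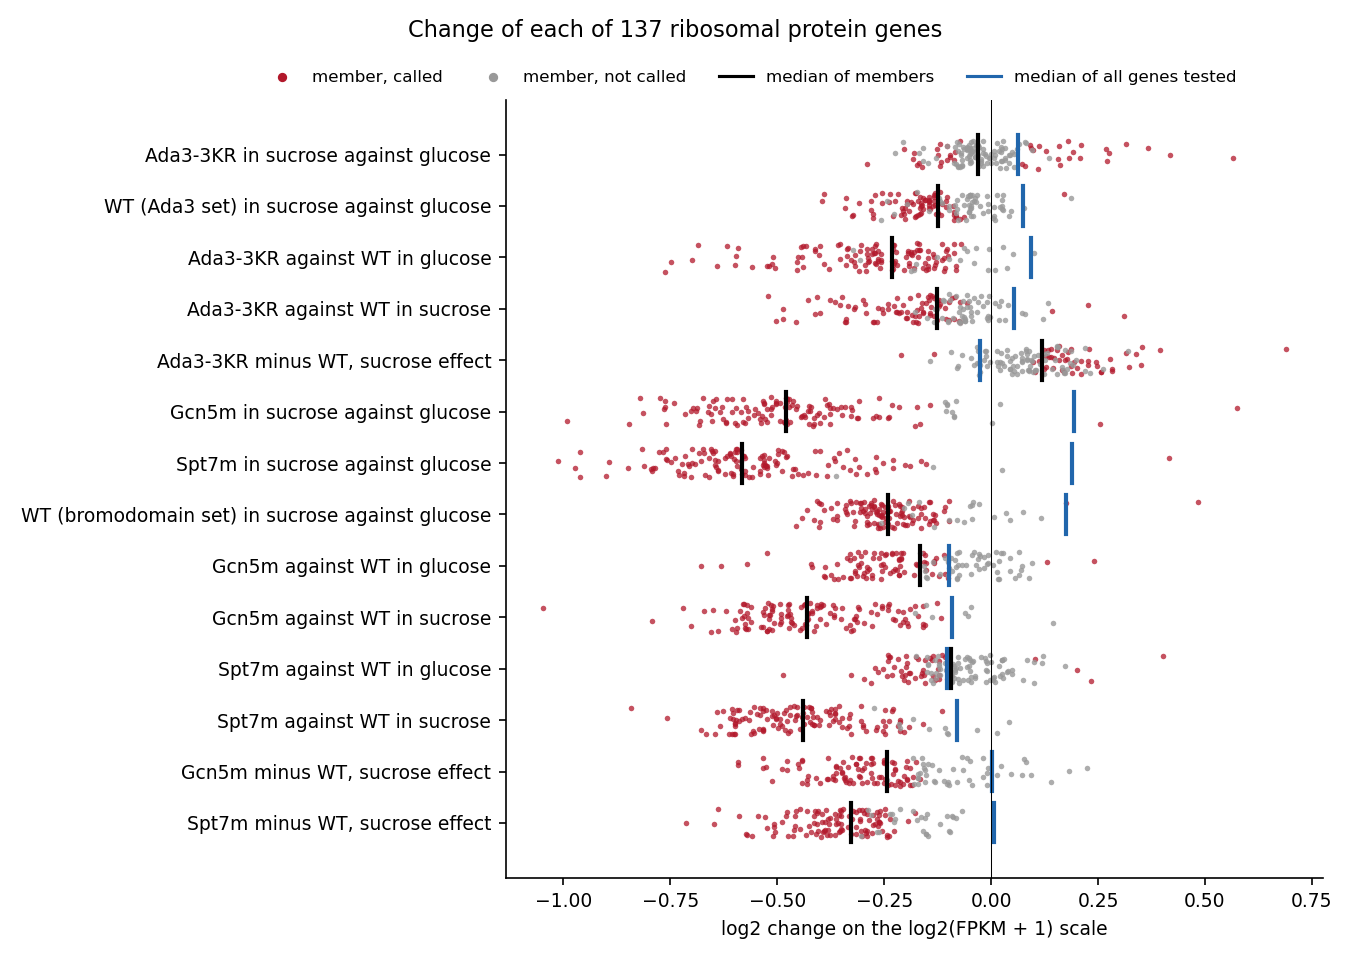
Log2 change on the log2(FPKM + 1) scale (x axis) of each of the 137 ribosomal protein genes in 14 comparisons (rows), where the last row of each set's mutants is the difference of its sucrose effect from that of WT. Red points are called genes, grey points are not, the black bar is the median of the 137 genes and the blue bar that of all genes tested. The black bars of Gcn5m and Spt7m in sucrose against glucose lie at −0.48 and −0.58 and that of their WT at −0.24, with the blue bars of all 3 above 0.

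RPL8B fell most in Gcn5m. This large-subunit gene stood at 1563, 1533 and 1447 FPKM in Gcn5m in sucrose, against 2944, 3018 and 3067 in Gcn5m in glucose, a log2 change of −0.99 ± 0.04 (limma adjusted p = 6.39e-13). Its partner RPL8A, 95.1% identical in its coding sequence, had 1124, 1103 and 1037 FPKM in sucrose, against 1217, 1204 and 1239 in glucose, a change of −0.17 ± 0.04 (−0.06 and not called after total rescaling). Libraries of the 2 sugars were separate for both copies, but the share of RPL8A in the sum of the pair was 41.8 ± 0.058% in Gcn5m in sucrose, against 28.8 ± 0.37% in Gcn5m in glucose. RPS9B (−0.85 ± 0.04) and RPL9A (−0.82 ± 0.07) followed. In Spt7m the largest falls were those of RPS22A (−1.01 ± 0.06, limma adjusted p = 3.08e-11), RPL8B (−0.97 ± 0.04) and RPL9A (−0.96 ± 0.07).

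RPS22A, which encodes a small-subunit protein and has no intron, stood at 1684, 1702 and 1543 FPKM in Spt7m in sucrose, against 3378, 3407 and 3158 in Spt7m in glucose. RPS22B, 89.6% identical and with an intron that holds SNR44, had 659.1, 643.9 and 592.0 FPKM in sucrose, against 853.0, 841.7 and 804.7 in glucose, a change of −0.40. Both copies were separated by sugar, RPS22A more widely. RPL14A changed by −0.96 ± 0.06 in Spt7m and its partner RPL14B by −0.23 ± 0.05; RPL9B changed by −0.27 ± 0.05 beside RPL9A. RPL22A changed by −0.72 ± 0.06 in Spt7m, while RPL22B, with 102.7, 92.6 and 95.6 FPKM in sucrose, against 97.0, 92.6 and 96.0 in glucose, changed by 0.03 (adjusted p = 0.684); its 2 groups overlapped.

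**Figure D3:**
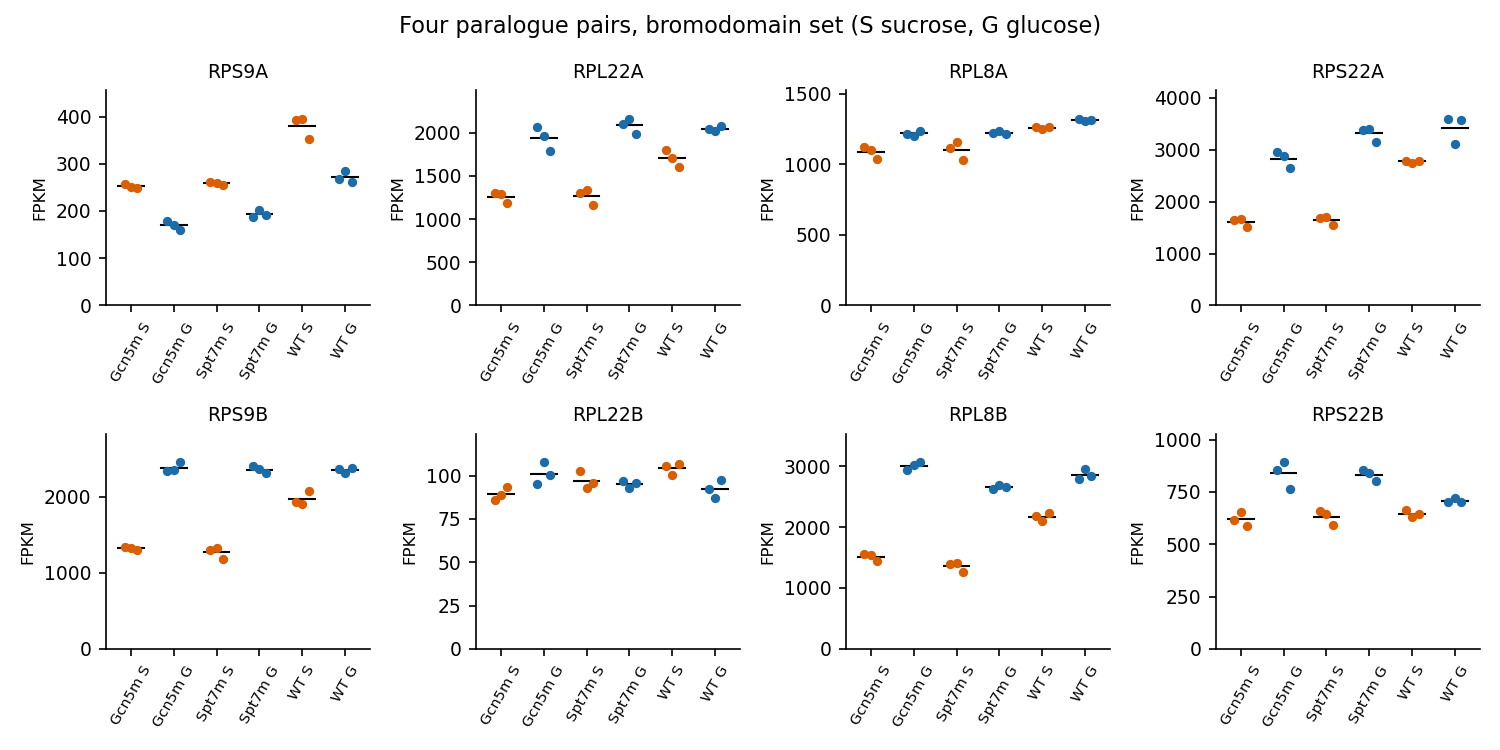
FPKM (y axes, from 0) of both copies of the RPS9, RPL22, RPL8 and RPS22 pairs in the 18 libraries of the bromodomain set, copy A above copy B. Points are libraries, bars are group means, S is sucrose and G glucose. RPS9A is higher in sucrose than in glucose in each strain while RPS9B is lower, and in Gcn5m RPL8B (−0.99) differs between the sugars more than RPL8A (−0.17).

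RPS9A rose in the bromodomain mutants as it did in WT. It stood at 256.6, 251.4 and 249.4 FPKM in Gcn5m in sucrose, against 177.9, 170.2 and 159.7 in Gcn5m in glucose, a change of 0.58 ± 0.05 (limma adjusted p = 8.81e-09). Spt7m had 260.4, 260.2 and 254.6 FPKM in sucrose, against 186.8, 201.7 and 192.2 in glucose, a change of 0.42 ± 0.05, which was 0.12 and not called after quantile normalization. The groups were apart in both. With RPS9B at 1338, 1333 and 1306 FPKM in Gcn5m in sucrose, against 2341, 2353 and 2460 in Gcn5m in glucose, RPS9A made up 16.0 ± 0.12% of the pair in sucrose and 6.64 ± 0.49% in glucose. The difference between the changes of the 2 copies, 1.42 on the log2 scale, was the largest of the 59 pairs over the comparisons of that set. RPL15B was the other gene called higher in Gcn5m (0.26 ± 0.07), and it stood at −0.00549 after quantile normalization and −0.00153 after median rescaling.

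The single genes of the bromodomain mutants fell like the pairs. All 19 were called lower in sucrose in both Gcn5m, with a median of −0.52, and Spt7m, with a median of −0.60. RPS2, which encodes a small-subunit protein near the entry of the mRNA path, changed by −0.77 in Gcn5m and −0.79 in Spt7m. RPL32 fell by 0.65 in Gcn5m and RPL25 by 0.71 in Spt7m. In the WT of that set 16 of the 19 single genes were called lower, with a median of −0.23.

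Ada3-3KR changed little with the sugar, and not in one direction. In sucrose against glucose 19 of its ribosomal protein genes were lower and 23 higher, with a median of −0.03, where 50.7% of all genes were called, 17.7% lower and 32.9% higher, and the median was 0.06. The split turned with the scaling, to 3 lower and 54 higher after quantile normalization, 47 lower and 11 higher after median rescaling, 14 lower and 29 higher after total rescaling and 12 lower and 27 higher after rescaling to genes that are not ribosomal protein genes, and the median itself was 0.05 after quantile normalization. Fitted on the compared groups alone it was 38 lower and 27 higher. Of all 5830 genes, 1455 were lower and 1452 higher after quantile normalization, and 1534 lower and 1431 higher after median rescaling. Total rescaling gave 907 lower and 2116 higher, and rescaling to genes that are not ribosomal protein genes 941 lower and 2094 higher. No ribosomal protein gene passed the test with 1.5-fold or more, which 8.7% of all genes did.

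The rises in Ada3-3KR were led by minor copies: RPS9A changed by 0.57 ± 0.06 (limma adjusted p = 3.54e-06), RPL22B by 0.42 ± 0.07 and RPS28B by 0.37 ± 0.05. RPS28B, whose mRNA is degraded in yeast under feedback from the Rps28 protein, stood at 559.1, 550.0 and 585.9 FPKM in Ada3-3KR in sucrose, against 442.8, 412.7 and 459.4 in Ada3-3KR in glucose. RPS28A had 2039, 2028 and 2039 FPKM in sucrose, against 2392, 2416 and 2326 in glucose; its change of −0.22 ± 0.11 was not called (adjusted p = 0.105), but it was called when fitted on the compared groups alone (adjusted p = 1.82e-05) and after median rescaling (−0.296, adjusted p = 0.0487), all in limma. The libraries of the 2 sugars did not overlap for either copy. The falls were led by RPL41B (−0.29 ± 0.11), whose call was lost when any of the 6 libraries was left out (adjusted p of at most 0.119) and whose sequence is nearly that of RPL41A, RPL36B (−0.20 ± 0.04) and RPS25A (−0.18 ± 0.05). The copies of RPL8, RPL36 and RPS16 were called in opposite directions. Of the single genes, RPS12 fell by 0.18, RPP0 by 0.16 and RPS31 by 0.12; the call of RPS31 was lost when any of 4 of the 6 libraries was left out, and RPP0 and RPS31 stood at 0.01 and 0.03 after quantile normalization.

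Compared directly with WT in glucose, Ada3-3KR had 118 of the 137 genes lower and 0 higher in limma (120 and 0 at an unadjusted p below 0.05), with a median of −0.23. Over all genes 62.2% were called, 22.1% lower and 40.2% higher, with a median of 0.09. Called falls of at least 1.5-fold numbered 9 (6.57%), near the 6.4% of all genes. The count of falls stayed between 94 and 121 under the 4 other scalings. Over all 5830 genes that count ran from 1161 to 1545. RPL33B, a large-subunit gene, had the largest, with 378.2, 404.6 and 399.5 FPKM in Ada3-3KR, against 688.7, 665.3 and 652.4 in WT, and a change of −0.76 ± 0.05 (limma adjusted p = 2.43e-08). RPL33A, 91.0% identical and without a shared 50-base stretch, had 2364, 2289 and 2307 FPKM in Ada3-3KR, against 2557, 2430 and 2501 in WT, and changed by −0.11 ± 0.03. The strains were separate in both copies, and RPL33B made up 14.5% of the pair in Ada3-3KR, against 21.1% in WT.

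The same unevenness held for other pairs in that comparison. RPS9A stood at 132.2, 139.5 and 133.7 FPKM in Ada3-3KR, against 232.6, 230.9 and 220.0 in WT, a change of −0.75 ± 0.06, beside −0.07 ± 0.03 for RPS9B, whose call was lost when any of 4 of the 6 libraries was left out and with the replicate block (adjusted p = 0.0561 in limma). RPL27B, with 532.6, 533.5 and 504.4 FPKM in Ada3-3KR against 885.6, 820.4 and 845.6 in WT, changed by −0.70 ± 0.04, RPL31B by −0.69 ± 0.05 beside −0.15 for RPL31A, RPL7B by −0.60 ± 0.04 beside −0.11 for RPL7A, and RPL36A by −0.56 ± 0.06 beside −0.07 for RPL36B (adjusted p = 0.142, but called when fitted on the compared groups alone, 0.0207, and after median rescaling, 0.0317). The small changes of RPS9B and RPL36B stood at 0.03 and 0.09 after quantile normalization, the calls of RPL33A and RPL31A were lost without 2 and 3 of the 6 libraries, and those of RPL33A, RPL31A and RPL7A were lost after quantile normalization (−0.00556, −0.0936 and −0.0129). In each of these pairs, RPL27 included, the copy that fell more was the one with the lower level. These pairs were picked by the size of their changes in these data. RPL7A and RPL7B are among the 16 genes whose reads may have been divided uncertainly between copies. Over the 51 pairs without such genes, the less abundant copy was more negative in 32. RPL3, a single gene whose protein reaches the peptidyl transferase centre, stood out among the abundant genes. It had 2797, 2705 and 2676 FPKM in Ada3-3KR, against 3897, 3819 and 3885 in WT, a change of −0.50 ± 0.02 (limma adjusted p = 5.58e-10) with no overlap between strains. RPL32 (−0.29) and RPS2 (−0.27) followed among the single genes.

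**Figure D4:**
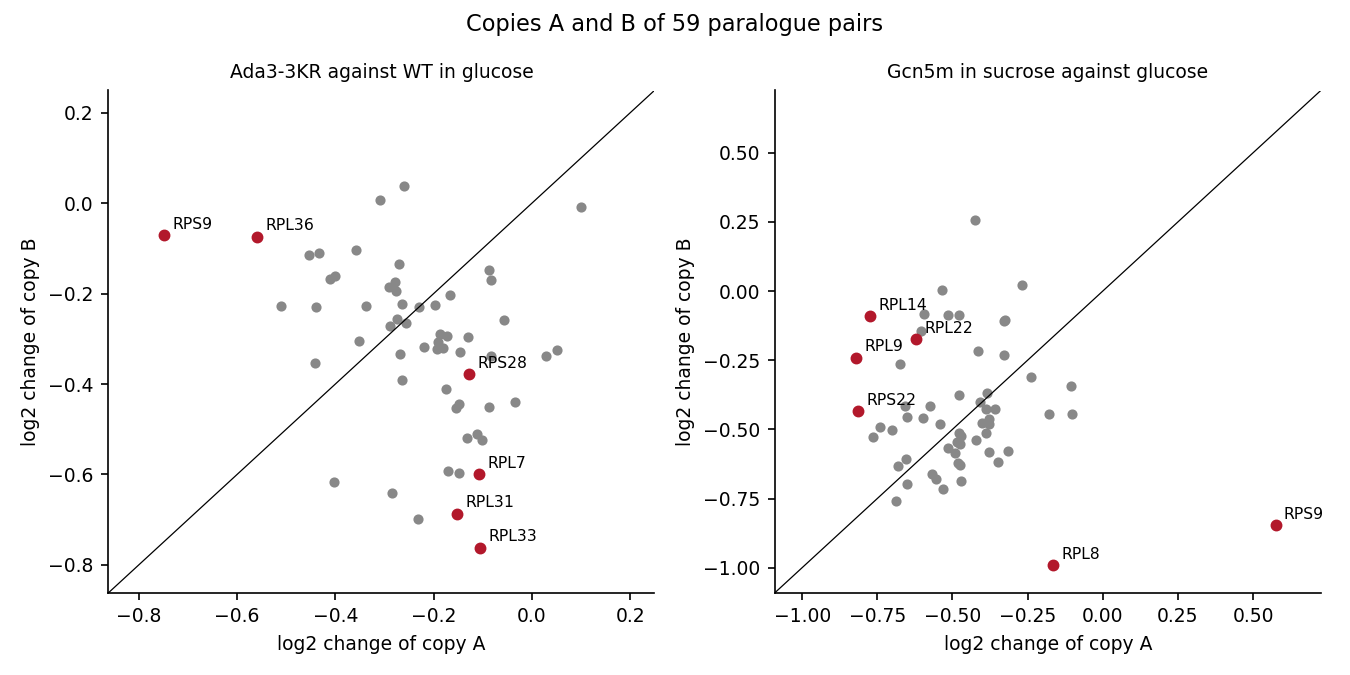
Log2 change of copy A (x axis) against that of copy B (y axis) for the 59 paralogue pairs in Ada3-3KR against WT in glucose (left) and in Gcn5m in sucrose against glucose (right); the line marks equal change. Red, named points are the 6 pairs of each set with the largest difference between copies in any of its comparisons. RPL33 lies at −0.11 for copy A and −0.76 for copy B on the left, and RPS9 at 0.58 and −0.85 on the right.

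In sucrose Ada3-3KR had 80 genes lower than WT and 3 higher, with a median of −0.13, where 55.9% of all genes were called, 22.2% lower and 33.8% higher, and the median was 0.05. After quantile normalization it was 63 lower and 19 higher. Of all 5830 genes, 1443 were then lower and 1857 higher. RPL27B (−0.52 ± 0.04), RPL31B (−0.50 ± 0.05) and RPL12A (−0.49 ± 0.03) fell most. RPL12A, for a protein at the base of the stalk, had 992.8, 1053 and 1039 FPKM in Ada3-3KR, against 1383, 1477 and 1467 in WT, without overlap. RPL3 changed by −0.38 ± 0.02, RPS12 by −0.29 ± 0.03 and RPL30, which in yeast controls the splicing of its own transcript, by −0.24 ± 0.06 (−0.05 and not called after quantile normalization). The 3 genes called higher were RPS28B (0.31 ± 0.05), RPL15B (0.23 ± 0.06) and RPL21B (0.14 ± 0.04, lost without the first Ada3-3KR library in sucrose, where the log2 change was 0.13), and the copies of RPL15 and of RPL21 were called in opposite directions.

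For 48 genes the change with sucrose was not the same in Ada3-3KR as in WT, and in 46 of them it was more positive in Ada3-3KR, with a median difference of 0.12 on the log2 scale. Over all genes 38.8% were called, 17.2% more positive and 21.6% more negative, with a median of −0.03. The second WT library in sucrose, in which the genes held 20.89% of the FPKM, lowered the count. Without it 87 genes were called, 85 of them more positive. RPS28B differed most (0.69 ± 0.07, limma adjusted p = 5.56e-06): beside the rise in Ada3-3KR it stood in WT at 428.2, 494.4 and 445.4 FPKM in sucrose, against 577.2, 567.0 and 564.1 in glucose. RPS9A (0.40 ± 0.09) and RPS19A (0.35 ± 0.07) followed. Among single genes RPS2 (0.21) and RPL32 (0.19, lost without any of 6 of the 12 libraries) had more positive effects. The 2 genes with a more negative effect were the stalk genes RPP1A and RPP2A.

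In the bromodomain set the mutants differed from WT more under sucrose. Gcn5m in sucrose had 130 genes lower than WT and 0 higher in limma (131 and 0 at an unadjusted p below 0.05), with a median of −0.43, where 70.6% of all genes were called, 42.6% lower and 28% higher, and the median was −0.09. Spt7m in sucrose had 126 lower and 0 higher (129 and 0 unadjusted), with a median of −0.44, where 70.3% of all genes were called, 41.5% lower and 28.8% higher, and the median was −0.08. Called falls of at least 1.5-fold numbered 14 in Gcn5m (10.2%), near the 12.3% of all genes, and 23 in Spt7m (16.8%), against 11.5% of all genes. In glucose Gcn5m had 82 genes lower and 2 higher with a median of −0.17, where 62% of all genes were called, 41.2% lower and 20.8% higher, and the median was −0.10. Spt7m in glucose had 48 lower and 4 higher with a median of −0.09, where 53.2% of all genes were called, 37.5% lower and 15.7% higher, and the median was −0.10, so that its share of lower genes, 35.0%, was near that of all genes. After median rescaling the counts in glucose were 55 lower and 11 higher for Gcn5m and 16 lower and 9 higher for Spt7m. Among all 5841 genes they were 1899 lower and 1634 higher for Gcn5m and 1453 lower and 1315 higher for Spt7m.

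RPL18B, a large-subunit gene, was lower in both mutants under both sugars. It stood at 220.7, 204.3 and 186.6 FPKM in Gcn5m in sucrose and 235.9, 236.9 and 231.6 in Spt7m in sucrose, against 422.0, 402.9 and 441.0 in WT in sucrose. That is a log2 change of −1.05 ± 0.05 in Gcn5m (limma adjusted p = 3.02e-12) and −0.84 ± 0.05 in Spt7m. In glucose it stood at 317.9, 317.9 and 312.9 FPKM in Gcn5m (−0.57 ± 0.05) and at 385.5, 392.1 and 369.8 in Spt7m (−0.30 ± 0.05), against 453.2, 474.3 and 482.7 in WT. Neither mutant overlapped with WT under either sugar.

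RPS22A came next in sucrose, with −0.79 ± 0.06 in Gcn5m and −0.76 ± 0.06 in Spt7m, while RPS22B changed by −0.06 ± 0.05 (adjusted p = 0.322) and −0.03. In glucose RPS22B was higher than WT, with 856.1, 893.0 and 766.1 FPKM in Gcn5m and 853.0, 841.7 and 804.7 in Spt7m, against 703.9, 720.0 and 700.0 in WT, changes of 0.24 ± 0.05 and 0.23 ± 0.05. No mutant library overlapped with WT. RPL23A changed by −0.72 ± 0.05 in Gcn5m in sucrose and by −0.33 ± 0.05 in Spt7m in glucose, and RPL8B by −0.68 ± 0.04 in Spt7m in sucrose. In glucose RPS9A had the largest fall in both mutants, −0.68 ± 0.05 in Gcn5m and −0.49 ± 0.05 in Spt7m, and RPL15B changed by −0.63 ± 0.07 in Gcn5m.

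Some genes rose in Spt7m in glucose. RPL6A, a large-subunit gene, stood at 1621, 1558 and 1575 FPKM in Spt7m, against 1205, 1240 and 1154 in WT, a change of 0.40 ± 0.06 (limma adjusted p = 1.92e-05), and in Gcn5m it had 978.5, 990.2 and 815.5 FPKM. The Spt7m libraries lay above WT and the Gcn5m libraries below it. RPS1B changed by 0.20 ± 0.04, and its copy RPS1A was called in the other direction (−0.11). Of the single genes, RPL28 (−0.58 in both mutants) and RPS2 (−0.56 in Gcn5m and −0.54 in Spt7m) fell most in sucrose, with RPL39 (−0.56) in Gcn5m and RPL25 (−0.53) in Spt7m. In glucose RPS12 changed by −0.42 in Gcn5m and −0.23 in Spt7m, beside RPL39 (−0.32) and RPL29 (−0.31) in Gcn5m, both lost when any of 4 of the 6 libraries was left out, and RPL28 (−0.19) and RPL10 (−0.14) in Spt7m. After median rescaling RPS12 (−0.146), RPL28 (−0.104) and RPL10 (−0.052) were not called in Spt7m, nor RPL39 (−0.236) and RPL29 (−0.229) in Gcn5m; RPS12 in Spt7m was also lost without the second WT library in glucose, and the others also after quantile normalization.

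The difference of the sucrose effect from WT was negative in 91 genes in Gcn5m and 110 in Spt7m and positive in 0 in both, with medians of −0.24 and −0.33 (limma; unadjusted, 96 and 119 negative and 0 positive). Over all genes 41.6% were called in Gcn5m, 20.7% more negative and 20.9% more positive, and 47.5% in Spt7m, 23.5% more negative and 23.9% more positive, with medians of 0.00 and 0.01. Both differences use the same WT libraries. The largest in Gcn5m were those of RPL8B (−0.59 ± 0.06, limma adjusted p = 6.25e-07), RPS9B (−0.59 ± 0.06) and RPS26B (−0.54 ± 0.05). In Spt7m they were those of RPS22A (−0.71 ± 0.08, limma adjusted p = 1.84e-06), RPS1B (−0.65 ± 0.05) and RPS9B (−0.64 ± 0.06). RPS26B, for a small-subunit protein at the mRNA exit, stood at 1066, 1066 and 1009 FPKM in Gcn5m in sucrose, against 1636, 1712 and 1687 in Gcn5m in glucose, and at 1504, 1553 and 1442 in WT in sucrose, against 1648, 1664 and 1665 in WT in glucose. RPS2 led the single genes in both mutants, with −0.53 in Gcn5m and −0.56 in Spt7m, ahead of RPL25 (−0.43 and −0.51). The rise of RPS9A did not pass the test of a difference from WT in either mutant (0.09 in Gcn5m and −0.07 in Spt7m).

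The stalk is a flexible arm of the large subunit, in which RPP0 anchors dimers of the acidic proteins P1 and P2 that recruit elongation factors. Its 5 genes were among the more abundant, and in the bromodomain set all 5 were called lower in sucrose in each strain. RPP2B changed by −0.58 ± 0.05 in Gcn5m, −0.73 ± 0.05 in Spt7m and −0.28 ± 0.05 in WT. It stood at 2737, 2766 and 2540 FPKM in Spt7m in sucrose, against 4505, 4443 and 4389 in Spt7m in glucose, with no overlap. RPP0 changed by −0.53 in Gcn5m, −0.60 in Spt7m and −0.43 in WT, RPP1A by −0.38, −0.53 and −0.24, RPP1B by −0.46, −0.67 and −0.41, and RPP2A by −0.38, −0.52 and −0.30 in that order. After quantile normalization none of the 5 was called lower in WT: RPP1A, RPP2A and RPP2B stood at 0.14, 0.05 and 0.08, and RPP0 and RPP1B at −0.135 and −0.113 (limma adjusted p = 0.0668 and 0.0957). RPP2A in Gcn5m was then at −0.136 and not called (limma adjusted p = 0.0831).

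Against WT in sucrose all 5 were called lower in both mutants, with −0.35 for RPP0, −0.39 for RPP1A, −0.44 for RPP1B, −0.40 for RPP2A and −0.52 for RPP2B in Gcn5m, and −0.21, −0.39, −0.41, −0.38 and −0.53 in the same order in Spt7m. The call of RPP0 in Spt7m was lost without the first WT library in sucrose (limma adjusted p = 0.0699) and after median rescaling (−0.143). In glucose all 5 were lower in Gcn5m, by 0.22 for RPP2B to 0.39 for RPP1B, of which RPP0 (−0.094) and RPP1A (−0.123) were not called after quantile normalization, nor RPP0 (−0.168) after median rescaling. In Spt7m in glucose 0 of 5 were called by limma, with 0 also at an unadjusted p below 0.05; their values ran from −0.05 for RPP0 to −0.15 for RPP2A. Other fits did call some of them lower in Spt7m in glucose: RPP1A, RPP1B and RPP2A with the replicate block (limma adjusted p = 0.0441, 0.026 and 0.0478), RPP1B and RPP2A on the compared groups alone (0.00123 and 0.00192), and RPP1A, RPP1B and RPP2B after rescaling to genes that are not ribosomal protein genes (0.0308, 0.0361 and 0.047). The difference of the sucrose effect from WT was called in RPP2B in Gcn5m (−0.31) and in RPP2B (−0.46), RPP1A (−0.29) and RPP1B (−0.27) in Spt7m; the call of RPP1B was lost when any of 9 of the 12 libraries was left out and after total rescaling (−0.224). RPP2A in Spt7m was called with the replicate block (−0.225, limma adjusted p = 0.0414) and on the compared groups alone (0.0381).

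The stalk genes changed unevenly in the Ada3 set. In sucrose against glucose Ada3-3KR had RPP0 (−0.16), RPP1A (−0.17), RPP2A (−0.12) and RPP2B (−0.17) called lower, and RPP1B at −0.09 (adjusted p = 0.0835). The WT had RPP0 (−0.13) and RPP1B (−0.18) called lower and RPP1A at 0.04, RPP2A at 0.01 and RPP2B at −0.08. After quantile normalization the calls of RPP1A (−0.0496) and RPP2A (−0.0138) in Ada3-3KR and of RPP0 (−0.0214) in WT were lost. RPP1A stood at 4151, 4164 and 4226 FPKM in Ada3-3KR in sucrose, against 4486, 4812 and 4810 in Ada3-3KR in glucose, and at 4966, 5270 and 5192 in WT in sucrose, against 4974, 5012 and 4997 in WT in glucose. The sugars were separate in Ada3-3KR and overlapped in WT, and the difference of the effects was −0.21 ± 0.04 (limma adjusted p = 0.00152); that of RPP2A was −0.13 ± 0.04, lost without either of 2 of the 12 libraries. Neither call held under every scaling: that of RPP1A was lost after quantile normalization (−0.14, limma adjusted p = 0.199) and that of RPP2A after median rescaling (−0.0764, limma adjusted p = 0.235). Against WT, Ada3-3KR in sucrose had RPP1A (−0.30), RPP2A (−0.22) and RPP2B (−0.27) lower, with RPP0 at −0.03 and RPP1B at −0.06. In glucose it had RPP1A (−0.09), RPP1B (−0.15), RPP2A (−0.08) and RPP2B (−0.17) lower and RPP0 at −0.0042. The signs of these small values rest on the scaling: in glucose RPP0, RPP1A, RPP1B and RPP2A stood at 0.11, 0.12, 0.02 and 0.07 after quantile normalization, in sucrose RPP0 and RPP1B at 0.14 and 0.11, with RPP1A at −0.0171 and RPP2A at −0.0779 and not called there, and in WT RPP1A and RPP2A at −0.09 and −0.11 after median rescaling.

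Medians by subunit, copy number and intron lay close together in Gcn5m in sucrose against glucose and less so in Ada3-3KR against WT in glucose. In Gcn5m in sucrose against glucose the median was −0.45 for the 76 large-subunit genes and −0.52 for the 56 small-subunit genes, −0.48 for the 89 genes with an intron and −0.49 for the 48 without, and −0.48 for the 118 paired and −0.52 for the 19 single genes. The 47 genes with the Rap1 letters upstream had a median of −0.48, and the 90 without them −0.49. The 5 stalk genes had a median of −0.46, and of −0.09 in Ada3-3KR against WT in glucose. In Ada3-3KR against WT in glucose the medians were −0.24 for the large and −0.26 for the small subunit, −0.27 with and −0.19 without an intron, −0.26 for paired and −0.19 for single genes, and −0.26 with and −0.23 without the Rap1 letters. Leaving out the 16 near-identical genes, 105 of 121 were lower in that comparison and 110 of 121 in Gcn5m in sucrose against glucose.

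Genes that work with the ribosomal proteins were set beside them as lists. The 19 elongation and ribosome-associated factors moved in the same direction as the ribosomal proteins in the bromodomain set: in sucrose against glucose 16 were lower and 2 higher in Gcn5m, 15 and 2 in Spt7m and 15 and 1 in WT, with medians of −0.44, −0.49 and −0.23. ZUO1, a chaperone at the peptide exit, changed by −0.71 in Gcn5m and −0.88 in Spt7m, and ASC1, for a scaffold protein on the head of the small subunit, by −0.63 and −0.77. Against WT in sucrose 16 were lower in Gcn5m and 17 in Spt7m, with ZUO1 at −0.84 in both. Of the 22 initiation factors 17 were lower in Gcn5m and 20 in Spt7m against WT in sucrose, among them TIF11 (−0.77 and −0.65) and the helicase gene TIF1 (−0.58 and −0.56). In Ada3-3KR in glucose, 12 elongation and associated factors and 16 initiation factors were lower than WT, with YEF3, the fungal elongation factor 3, at −0.60 and TIF3 at −0.50. In sucrose 9 elongation and associated factors were higher than WT in Ada3-3KR and 5 lower, with a median of 0.04. Of all genes 33.8% were higher and 22.2% lower there. With the sugar, 2 of these factors were higher and 16 lower in the Ada3 WT, and 8 and 4 in Ada3-3KR. The direction of the initiation factors with the sugar differed between strains. In the bromodomain set 5 were higher and 7 lower in Gcn5m, 2 and 12 in Spt7m, and 10 and 6 in WT. In the Ada3 set it was 17 and 1 in Ada3-3KR and 3 and 4 in WT. Of all genes, 32.9% were higher and 17.7% lower in Ada3-3KR, and 32.7% and 13.9% in its WT. In Gcn5m, Spt7m and the bromodomain WT 52.2%, 51.6% and 50.9% of all genes were higher. Over all genes 21.8%, 24.4% and 15.7% were lower in sucrose against glucose in Gcn5m, Spt7m and the bromodomain WT, 42.6% and 41.5% were lower in Gcn5m and Spt7m than in WT in sucrose, and the glucose comparison of Ada3-3KR with WT had 22.1% lower.

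The 10 dedicated chaperones of ribosomal proteins showed the widest swing of these lists in Ada3-3KR. All 10 were lower than WT in glucose, with a median of −0.74, among them SYO1, which imports Rpl5 and Rpl11 (−1.29), TSR2, the escort of Rps26 (−1.02), and RRB1, the chaperone of Rpl3 (−0.92). All 10 were higher in sucrose than in glucose in Ada3-3KR, with a median of 0.66, led by SYO1 (1.68), PUF6 (1.08) and SQT1 (0.99). Both comparisons use the same Ada3-3KR libraries in glucose, so they are not independent. Against WT in sucrose 2 of the 10 were higher and 4 lower in Ada3-3KR, with a median of −0.12. Of all genes 33.8% were higher and 22.2% lower there. In the WT of that set 3 of 10 were higher, with a median of 0.05. In the bromodomain set 10 of 10 were lower in Spt7m and 9 of 10 in Gcn5m than in WT in sucrose, led by TSR2 (−0.82 and −0.69). In sucrose against glucose 5 were higher and 3 lower in Gcn5m, 0 and 5 in Spt7m, and 7 and 0 in WT. Of all genes 52.2%, 51.6% and 50.9% were higher in these comparisons and 21.8%, 24.4% and 15.7% lower. Over all genes 22.1% were lower than WT in glucose and 32.9% higher in sucrose in Ada3-3KR, 32.7% higher in sucrose in its WT, and 41.5% and 42.6% lower in Spt7m and Gcn5m than in WT in sucrose.

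Of the 12 regulators of these genes, most were higher in sucrose, and so were many genes: 52.2%, 51.6% and 50.9% of all genes were called higher in Gcn5m, Spt7m and the bromodomain WT and 32.9% and 32.7% in Ada3-3KR and the Ada3 WT. Of the regulators, 11 were called higher in Gcn5m, 11 in Spt7m and all 12 in the WT of the bromodomain set, with medians of 0.46, 0.49 and 0.39, and 7 in Ada3-3KR and 8 in the WT of the Ada3 set, with medians of 0.15 and 0.21. None of the 12 was called lower in these 5 comparisons. In the bromodomain WT, ABF1 changed by 0.61, REB1 by 0.56, STB3 by 0.46, HMO1 by 0.43 and RAP1 by 0.36. In Ada3-3KR against WT in glucose 7 were higher and 0 lower, where 40.2% of all genes were higher, led by ABF1 (0.60), RAP1 (0.40) and HMO1 (0.30). The 55 genes named MRP, MRPL or MRPS with a number, taken by name as mitochondrial ribosomal protein genes, were likewise mostly higher in sucrose. There 55 of 55 were higher in Gcn5m and in Spt7m and 54 in both WT groups, and 40 were higher and 1 lower in Ada3-3KR, with medians of 0.59, 0.75, 0.77 and 0.50 in Gcn5m, Spt7m, the bromodomain WT and the Ada3 WT and 0.21 in Ada3-3KR. They were also higher in the mutants than in WT in glucose, in 54 genes of Gcn5m, 51 of Spt7m and 49 of Ada3-3KR, against 20.8%, 15.7% and 40.2% of all genes. In sucrose 47 were higher than WT in Gcn5m and 48 in Spt7m, against 28% and 28.8% of all genes. Ada3-3KR in sucrose had 9 higher and 3 lower, with a median of 0.03, where 33.8% of all genes were higher and 22.2% lower.

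**Figure D5:**
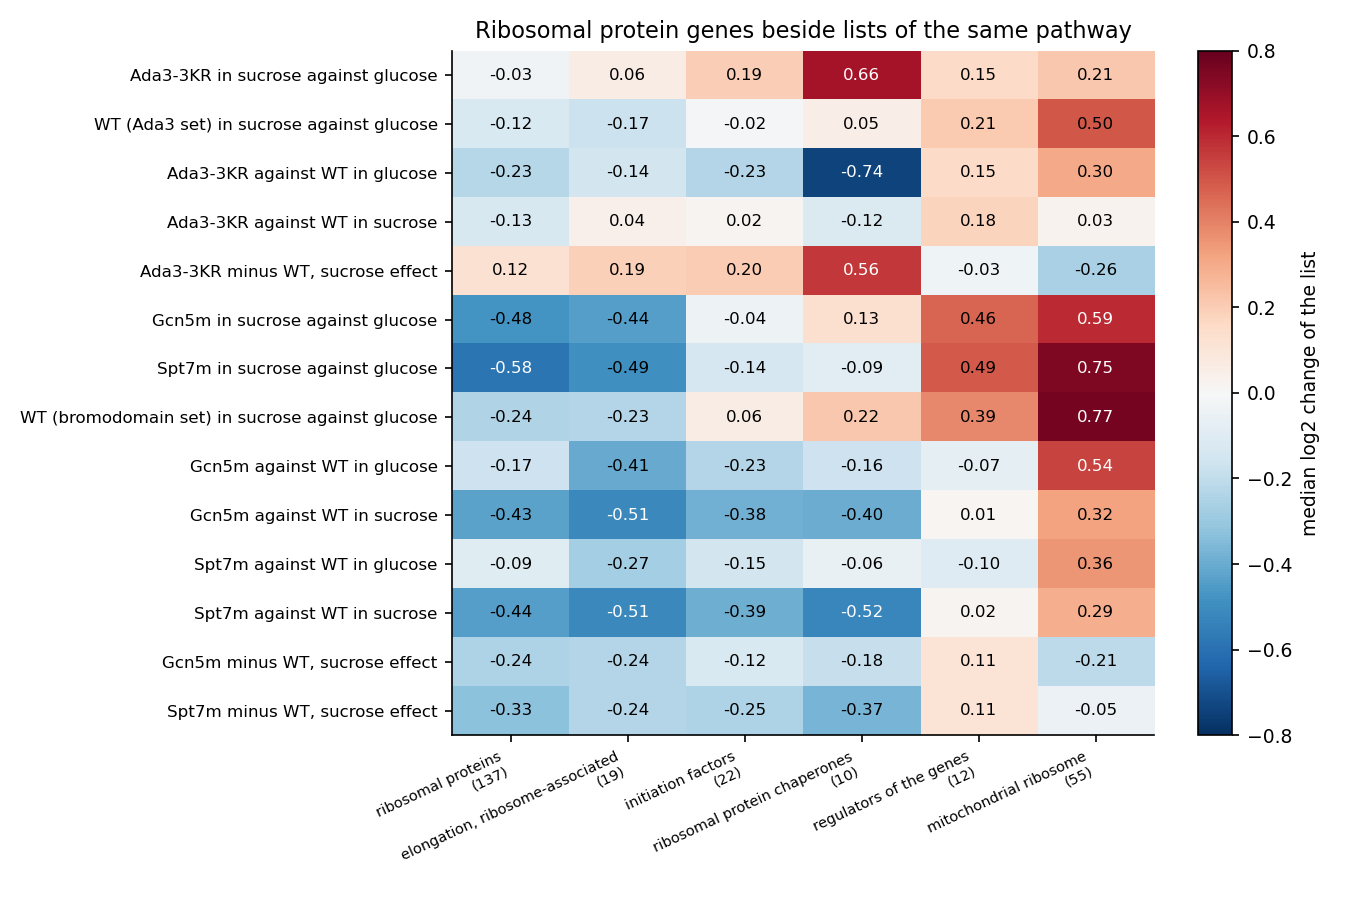
Median log2 change (colour and printed value) of the 137 ribosomal protein genes and of 5 lists of genes of the same pathway (columns, with the number of genes) in the 14 comparisons (rows). Blue is lower and red higher in the group named first. The ribosomal protein column is negative in each row but Ada3-3KR minus WT (that of Ada3-3KR in sucrose against glucose, −0.03, is 0.05 after quantile normalization), while the mitochondrial ribosome column is positive in all sugar comparisons and in all comparisons of a mutant with WT. For Ada3-3KR against WT in sucrose it is 0.03, below the median of 0.05 of all genes.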

How the data were processed

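Total RNA of 30 libraries in 10 groups of 3 was sequenced after Trizol extraction and Illumina TruSeq preparation, per the labels' protocols. Reads were handled with HISAT2 2.1.0, cutadapt 1.16 and StringTie 1.3.3b on build R64, per the submitters' processing notes. The authors deposited gene FPKM values in 2 tables of 6101 genes, fitted separately here; 2 names turned into dates were restored. With no counts, the depth and the precision it gives are unknown, so that precision rests on the spread of 3 libraries.

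Differences of log2(FPKM + 1) were fitted with limma 3.58.1 in R 4.3.3 (1 mean per group, trended empirical Bayes, mean of at least 1 FPKM) and adjusted by Benjamini-Hochberg over all genes of a set at 0.05. The fit was tested on simulated data. With 3 libraries against 3 an exact permutation test cannot go below 0.1, so none was used. Genes were named by a rule: the 3 largest rises and falls whose groups do not overlap, the stalk genes, single genes, the highest and lowest levels and the 6 most unequal pairs; some of these genes are not reported here. The genes and lists were chosen with earlier results of these data known. Other pseudocounts, filters, 4 scalings, blocks, fits on the compared groups alone and left-out libraries were tried. Numbers of replicates are shared between groups; numbers were taken to pair groups where the deviations of every pair correlated above 0.1, which of the compared groups only WT in sucrose and in glucose of the Ada3 set did (r = 0.14, 0.41 and 0.12). Sequences are from RefSeq R64, read with Biopython 1.88.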

Additional observations from a re-analysis of the deposited data

Results flagged for a closer look

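The effect of sucrose differed between Ada3-3KR and WT, by the test of that difference in limma, for RPS28B (difference of log2 changes 0.69), RPS9A (0.40), RPS19A (0.35), RPP1A (−0.21) and RPP2A (−0.13); the call of RPP1A was lost after quantile normalization (−0.14) and that of RPP2A after median rescaling (−0.0764). RPS19A, a small-subunit gene, stood at 683.8, 654.8 and 657.7 FPKM in Ada3-3KR in sucrose, against 641.5, 640.6 and 652.3 in Ada3-3KR in glucose, and at 633.8, 761.4 and 672.8 in WT in sucrose, against 875.9, 841.9 and 836.0 in WT in glucose. Between Gcn5m and WT the effect differed for RPL8B (−0.59), RPS9B (−0.59) and RPS26B (−0.54). Between Spt7m and WT it differed for RPS22A (−0.71), RPS1B (−0.65) and RPS9B (−0.64). RPS1B stood at 1182, 1254 and 1174 FPKM in Spt7m in sucrose, against 2381, 2165 and 2200 in Spt7m in glucose, and at 1625, 1642 and 1656 in WT in sucrose, against 1990, 1902 and 1971 in WT in glucose.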

How the results depend on the processing

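Counts of called genes stood within 1.5 times of those given under 223 of 242 alternatives. Restricted to 1.5-fold changes they were 0, 0, 9, 0 and 1 in the Ada3 set (Ada3-3KR and WT in sucrose against glucose, Ada3-3KR against WT in glucose and in sucrose, and the difference of effects), and 37, 65, 0, 2, 14, 0, 23, 2 and 4 in the bromodomain set (Gcn5m, Spt7m and WT in sucrose against glucose, Gcn5m against WT in glucose and in sucrose, Spt7m likewise, and both differences). The others were 65 for Ada3-3KR in sucrose against glucose fitted on the compared groups alone, 122 for the Ada3 WT and 25 for Spt7m against WT in glucose after median rescaling, and 59 for the bromodomain WT after quantile normalization. The last was 87 for the difference of Ada3-3KR from WT without the second WT library in sucrose. A count can stay within that range while its split turns. In Ada3-3KR in sucrose against glucose, 23 higher and 19 lower became 54 and 3 after quantile normalization. Leaving out a library gave 30 to 40, 55 to 92, 103 to 113, 74 to 104 and 39 to 87 in the Ada3 set, and 123 to 130, 132 to 135, 103 to 116, 69 to 85, 122 to 129, 36 to 50, 121 to 130, 70 to 95 and 101 to 118 in the bromodomain set. With the replicate block the counts were 37, 76, 114, 81 and 45, and 129, 135, 122, 89, 131, 64, 129, 94 and 120. Among named genes the block ended the call of RPS9B in Ada3-3KR against WT in glucose, added those of RPP1A, RPP1B and RPP2A in Spt7m against WT in glucose and of RPP2A in the difference of Spt7m, and changed no other call.

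Signs turned after quantile normalization for the median of Ada3-3KR in sucrose against glucose (0.0488) and there for RPP0 (0.00825), RPP2B (0.0203) and RPS31 (0.0288). In Ada3-3KR against WT they turned in glucose for RPP0 (0.11), RPP1A (0.12), RPP1B (0.0245), RPP2A (0.072), RPS9B (0.0264) and RPL36B (0.0937), and in sucrose for RPP0 (0.14) and RPP1B (0.11). In sucrose against glucose they turned for RPL15B in Gcn5m (−0.00549), RPL22B in Spt7m (−0.26) and, in the bromodomain WT, RPL22B (−0.0681), RPP1A (0.14), RPP2A (0.0485), RPP2B (0.0826) and RPS15 (0.0277). Median rescaling turned RPP1A (−0.0854) and RPP2A (−0.11) in the Ada3 WT, RPL15B in Gcn5m (−0.00153), and RPL22B in Spt7m (−0.24) and the bromodomain WT (−0.0795). The cause was not tested. Unknown depth, 3 libraries a group, shares of a total and near-identical copies limit all values.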

Other observations

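The more and the less abundant copy of a pair did not change alike. With the copies ranked by their level in the other set and the near-identical pairs left out, pairs whose copies were at least 2-fold apart were described without a test. In Ada3-3KR against WT in glucose the less abundant copies had a median log2 change of −0.41 and the more abundant ones −0.15, and the less abundant copy changed more negatively in 19 of 23 pairs. In Ada3-3KR in sucrose against glucose the medians were 0.09 and −0.08, with the less abundant copy more positive in 20 of 23 pairs. Both comparisons use the same Ada3-3KR libraries in glucose, so they are not independent. In Ada3-3KR against WT in sucrose the medians were −0.20 and −0.07, with the less abundant copy more negative in 18 of 23 pairs. Over all 51 pairs that are not near-identical, this comparison had the less abundant copy more negative in 28 and more positive in 23. The medians there were −0.16 and −0.12. In the bromodomain set the less abundant copies fell less in sucrose. Their medians were −0.24 in Gcn5m, −0.38 in Spt7m and −0.15 in WT, against −0.54, −0.62 and −0.27 for the more abundant copies, and they changed less negatively in 24, 23 and 25 of 30 pairs. Over all 51 pairs that are not near-identical the difference was smaller: the less abundant copy was more negative in 32 in Ada3-3KR against WT in glucose (medians −0.30 and −0.22), more positive in 37 in Ada3-3KR in sucrose against glucose, and less negative in 37, 36 and 34 in sucrose in Gcn5m, Spt7m and WT.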
